A study of Mus musculus with 6 samples.

Results

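Glutathione is a small thiol molecule built from glutamate, cysteine and glycine, and it is the main soluble antioxidant of animal cells. Glutamate-cysteine ligase, made of a catalytic subunit (Gclc) and a modifier subunit (Gclm), carries out the first and rate-limiting step of its synthesis, and glutathione synthetase (Gss) adds glycine. Cysteine for the first step comes in part from cystine imported by a transporter whose light chain is Slc7a11, and in part from the dipeptide cysteinyl-glycine, which the cytosolic dipeptidase Cndp2 splits. Peroxidases (Gpx1, Gpx4) and transferases (Gstm1, Gsta4) spend glutathione on peroxides and reactive aldehydes, and glutathione reductase (Gsr) regenerates it with NADPH. Several of these genes are textbook targets of the transcription factor NRF2, and muscle cells use the system against the oxidants that contraction and injury produce.

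The 10 genes named above were followed in cultures of primary satellite cells, the resident stem cells of muscle. They were selected by symbol with their difference between the treatments already known, so the values of that contrast are given as a description and support nothing further. All 10 were found among the 27179 rows of the count table, and all 10 were among the 13769 genes that passed a filter on low counts. None had been admitted by the high values of a single group, since the lowest count of any of them in any library was 245, for Gsta4 in a BSA library.

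The cells came from hindlimb muscle of C57BL/6 mice of wild-type genotype, are labelled as ageing with no age given, and were grown in medium with fetal bovine serum and basic fibroblast growth factor. In the treated group recombinant human MG53 (rhMG53), a protein of striated muscle known for its part in membrane repair, was added for 72 h, and the control group received bovine serum albumin (BSA) for the same time. Each group held 3 libraries of poly(A)-selected RNA, with 17374151 to 19827476 counts in the rhMG53 libraries and 17898768 to 22738745 in the BSA libraries. The study calls its replicates biological without naming an animal or culture for any library, so errors and p-values cover the spread among these 6 libraries, which may be partly technical. The sources used here give no dose of rhMG53.

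The labelled cell type was checked against its markers. All 7 markers of satellite cells and myoblasts were detected, 6 of them above the filter, and summed to 2524 to 2599 CPM (counts scaled to a common library size) in rhMG53 libraries and to 2648 to 2701 CPM in BSA libraries. Markers of differentiating muscle cells were far more abundant, at 44427 to 48244 CPM with rhMG53 and 45919 to 48342 CPM with BSA, so the cultures held differentiated muscle cells as well. Of the markers of other cell types, the fibroblast and fibro-adipogenic list summed to 81.6 to 92.4 CPM with rhMG53 and 72.2 to 85.9 CPM with BSA, with 6 of 8 genes above the filter. The endothelial list stood at 5.35 to 6.90 CPM with rhMG53 and 6.76 to 7.26 CPM with BSA, with 2 of 7 above the filter, and the leukocyte list at 7.37 to 11.8 CPM with rhMG53 and 6.87 to 8.09 CPM with BSA, with 4 of 8. Smooth muscle and pericyte markers summed to 145.1 to 160.8 CPM with rhMG53 and 141.1 to 160.5 CPM with BSA, with 3 of 6 above the filter and Kcnj8 at 0 in every library. The Schwann cell list stood at 3.06 to 3.28 CPM with rhMG53 and 2.29 to 2.69 CPM with BSA (2 of 5 above the filter). The adipocyte list was at or below 0.968 CPM in all libraries and the erythroid list at or below 0.275 CPM, with Hbb-bs at 0. The part of these cell types in the differences below was not tested, and in such mixed cultures more cells of a type cannot be told apart from more RNA per cell.

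Short stretches of promoter are shown for Gclm and Slc7a11, which had the highest fold changes of the 10 genes and held a sequence match. RefSeq promoter windows of GRCm38.p6 each run from 250 bases before to 50 bases after a listed start of a gene. Windows were on hand for Gclm, Gss, Slc7a11, Gpx1, Gpx4 and Gstm1, 10 in all. They were searched on both strands for TGACNNNGC, the core of the antioxidant response element that NRF2 binds, and for TGATGNAA, the core of the composite element bound by ATF4 and C/EBP factors. Both stretches below read 5′ to 3′ on the strand of the gene, with the matches in capitals.

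Gclm promoter: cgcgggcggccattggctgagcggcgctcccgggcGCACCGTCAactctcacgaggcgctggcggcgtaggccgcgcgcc
Slc7a11 promoter: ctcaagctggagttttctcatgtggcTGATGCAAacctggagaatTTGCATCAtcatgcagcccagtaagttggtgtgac

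The Gclm stretch lies at chr3:122245388-122245467 on the plus strand, from 169 to 90 bases before the listed start. Its match to the antioxidant element core reads on the opposite strand. The Slc7a11 stretch lies at chr3:50443626-50443705 on the minus strand, from 92 to 13 bases before the listed start. It holds the ATF4 core once in each orientation. Both listed starts lie inside the gene spans given below, which begin at 122245487 for Gclm and, on the minus strand, at 50499087 for Slc7a11. The positions are therefore not distances from the ends of those spans. Gclm had the only antioxidant core among the 10 windows and Slc7a11 the only ATF4 core, and no match of one motif overlapped a match of the other. Gclc, Gsr, Cndp2 and Gsta4 had no window and were not searched. Over all 32851 promoter windows of the mouse table, 12.4% held the antioxidant core and 3.97% the ATF4 core. A match describes letters in a window and does not show that a factor binds there.

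Gpx1 and Gpx4 are selenoproteins, in which a TGA codon that would otherwise end translation is read as selenocysteine, the reactive residue of the enzyme. The codon is shown in capitals, with 15 coding bases on each side, for both genes and for Gpx3, their secreted relative, from the longest coding transcript of each in GENCODE M21.

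Gpx1 codon 47: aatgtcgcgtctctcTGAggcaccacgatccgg
Gpx4 codon 129: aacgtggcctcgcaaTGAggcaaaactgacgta
Gpx3 codon 73: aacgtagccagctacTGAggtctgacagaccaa

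Each of the 3 coding sequences held 1 such codon in frame. Gpx7 and Gpx8, the other peroxidases of the family that these cells expressed above the filter, held 0.

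The first result concerns the supply of cysteine and the first step of synthesis, where the differences between treatments were largest. Gclm, the modifier subunit of glutamate-cysteine ligase (gene ID 14630, chromosome 3, 122245487 to 122267215 in mm10), had 27.6, 25.4 and 24.6 CPM in replicates 1 to 3 with rhMG53 and 21.7, 16.9 and 17.9 CPM in replicates 1 to 3 with BSA. All 3 rhMG53 libraries were above all 3 BSA libraries, and BSA replicate 1 was the nearest to them. The groups averaged 25.9 ± 1.55 CPM with rhMG53 and 18.9 ± 2.51 CPM with BSA (SD, n = 3 each), a fold change of 1.37 (95% interval 1.17 to 1.59). Adjusted over all 13769 genes in edgeR's quasi-likelihood test the p was 0.855, so Gclm did not pass the threshold of 0.05. In GENCODE M21 its exons overlap those of Gm17494 on the opposite strand and of the pseudogene Gm6061, which could share its reads.

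Gclc, the catalytic subunit that carries the active site (gene ID 14629, chromosome 9, 77754535 to 77794489), was at 41.5, 37.0 and 39.3 CPM with rhMG53 and at 38.8, 39.2 and 35.6 CPM with BSA. The groups overlapped, and the fold change was 1.04 with an interval of 0.93 to 1.16 (edgeR adjusted p = 0.988). The partners of the same enzyme were therefore set against each other per length, as a ratio of CPM per kilobase of transcript. The ratio of Gclm to Gclc was 0.408, 0.420 and 0.384 in rhMG53 replicates 1 to 3 and 0.342, 0.265 and 0.308 in BSA replicates 1 to 3. It averaged 0.404 ± 0.0185 with rhMG53 and 0.305 ± 0.0390 with BSA, and the groups did not overlap. The ratio carries the same contrast by which the genes were selected and was not tested.

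Slc7a11, the light chain of the cystine and glutamate exchanger (gene ID 26570, chromosome 3, 50364936 to 50499087), was at 37.7, 24.7 and 25.4 CPM with rhMG53 and at 27.3, 21.6 and 13.5 CPM with BSA. BSA replicate 1 was higher than rhMG53 replicates 2 and 3, so the groups overlapped, with rhMG53 replicate 1 the highest library and BSA replicate 3 the lowest. The means were 29.2 ± 7.30 CPM with rhMG53 and 20.8 ± 6.93 CPM with BSA, a fold change of 1.40 with a wide interval that reaches from just below 1 to 1.96 (edgeR adjusted p = 0.950). The log2 fold change of 0.48 was 0.26 without rhMG53 replicate 1, 0.26 without BSA replicate 3 and 0.74 without BSA replicate 1, so its size rested on single libraries.

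Cndp2, the cytosolic dipeptidase that frees cysteine from cysteinyl-glycine (gene ID 66054, chromosome 18, 84667465 to 84685702), was at 48.7, 47.1 and 43.9 CPM with rhMG53 and at 38.8, 37.0 and 35.5 CPM with BSA. Every rhMG53 library was above every BSA library, and the lowest rhMG53 value stood 5 CPM or more above the highest BSA value. The means were 46.6 ± 2.41 CPM with rhMG53 and 37.1 ± 1.62 CPM with BSA, a fold change of 1.25 with an interval of 1.13 to 1.39. Its unadjusted p of 5.73e-04 was the smallest of the 10 genes, and the adjusted p in edgeR was 0.855.

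Gss, the synthetase that completes glutathione (gene ID 14854, chromosome 2, 155563181 to 155592810), was at 74.3, 77.3 and 72.5 CPM with rhMG53 and at 70.9, 76.7 and 78.0 CPM with BSA. The groups overlapped fully, with a fold change of 0.99 and an interval of 0.90 to 1.09 (edgeR adjusted p = 0.997). The sign of this difference, lower with rhMG53 in the fit given, turned with scaling by library size alone. Exons of Gss overlap those of Acss2 and of a pair of antisense transcripts on the opposite strand. The sources used here do not state whether counting used the strand, so part of its counts could come from them. Acss2 itself had a log2 fold change of 0.09.

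**Figure D1:**
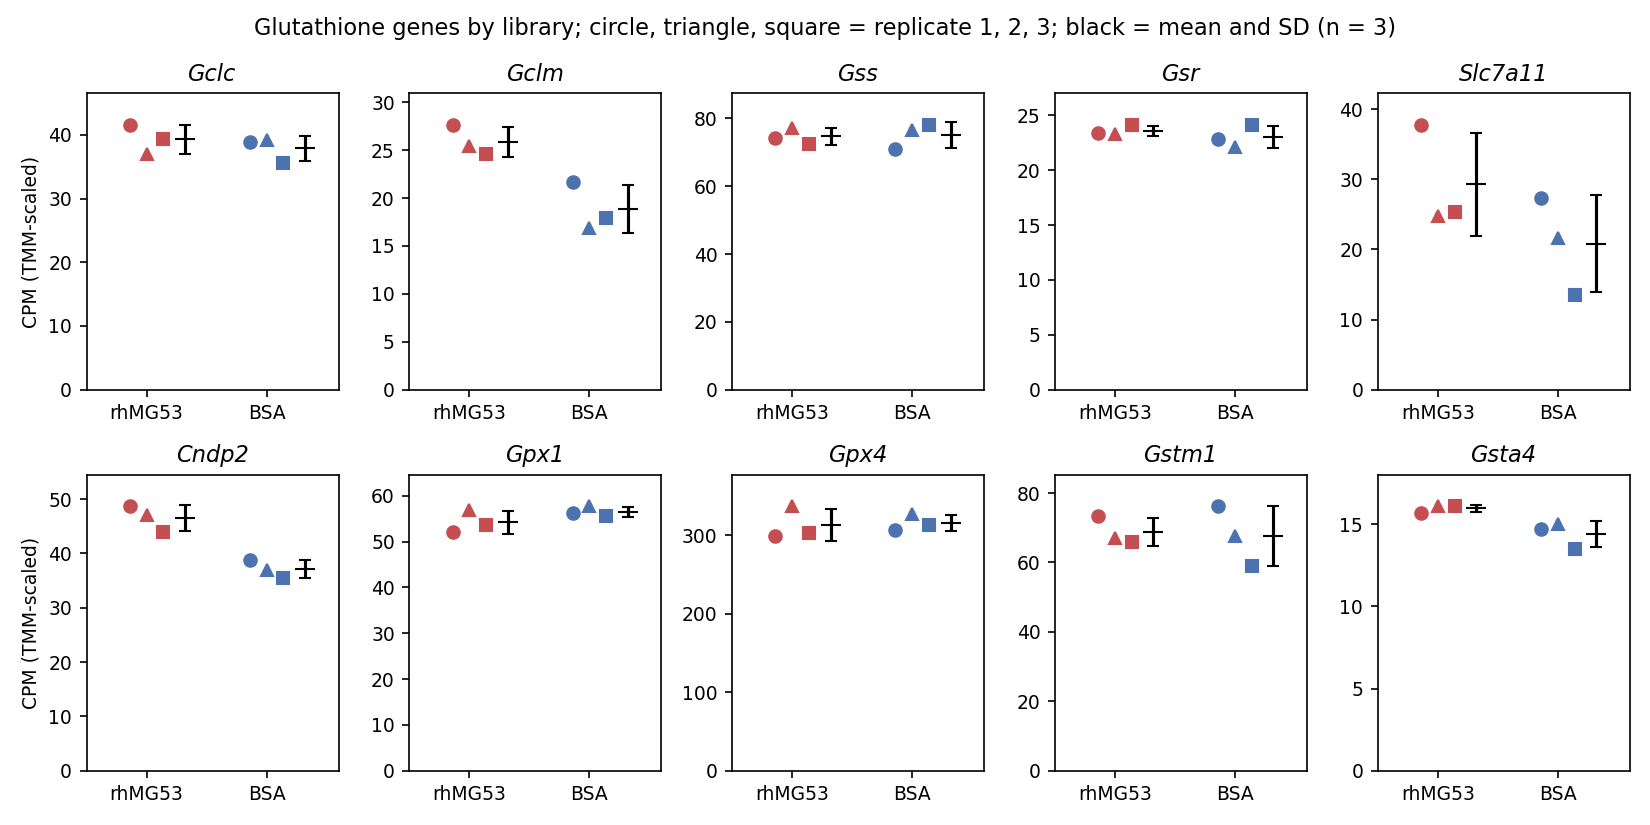
Level of each of the 10 glutathione genes in CPM on TMM-scaled library sizes, in each of 3 rhMG53 and 3 BSA libraries, with the mean and SD in black. The rhMG53 libraries of Gclm, Cndp2 and Gsta4 lie above all BSA libraries, while the groups overlap in the other 7 genes.

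The second result concerns recycling. Gsr, the reductase that turns oxidised glutathione back to its reduced form (gene ID 14782, chromosome 8, 33653238 to 33698162), was at 23.4, 23.3 and 24.1 CPM with rhMG53 and at 22.8, 22.1 and 24.1 CPM with BSA. The values overlapped, and the fold change was 1.03 with an interval of 0.92 to 1.14 (edgeR adjusted p = 0.992). The means were 23.6 ± 0.408 CPM with rhMG53 and 23 ± 1.05 CPM with BSA.

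The third result concerns the enzymes that use glutathione. Gpx4, which reduces peroxides of membrane phospholipids and so protects cells from ferroptosis (gene ID 625249, chromosome 10, 80047166 to 80056439), was at 299.2, 336.7 and 302.4 CPM with rhMG53 and at 306.9, 327.0 and 312.4 CPM with BSA. The groups overlapped, and rhMG53 replicate 2 was the highest of the 6 libraries. The fold change was 0.99 with an interval of 0.90 to 1.09 (edgeR adjusted p = 0.997), and its sign turned with scaling by library size alone. Of the 50-base words of the longest Gpx4 coding transcript, 61.7% also occur in transcripts of other loci, with the pseudogene Gpx4-ps2 sharing the most. The sources used here do not state how reads that map to several places were counted, so the level of Gpx4 is uncertain.

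Gpx1, the abundant cytosolic peroxidase that reduces hydrogen peroxide (gene ID 14775, chromosome 9, 108339080 to 108340342), was at 52.0, 56.9 and 53.7 CPM with rhMG53 and at 56.3, 57.7 and 55.5 CPM with BSA. Among the 10 genes it had the lowest fold change, 0.96 with an interval of 0.87 to 1.05 (edgeR adjusted p = 0.983), and the groups overlapped through rhMG53 replicate 2. The ratio of Gpx4 to Gpx1 per kilobase averaged 6.21 ± 0.156 with rhMG53 and 6.02 ± 0.123 with BSA.

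Gsta4, an alpha-class transferase known for clearing the lipid peroxidation product hydroxynonenal (gene ID 14860, chromosome 9, 78191966 to 78209349), was at 15.7, 16.1 and 16.1 CPM with rhMG53 and at 14.7, 15 and 13.5 CPM with BSA. The rhMG53 libraries were close together and all above the BSA libraries, by a small margin. The means were 15.9 ± 0.257 CPM with rhMG53 and 14.4 ± 0.802 CPM with BSA, a fold change of 1.11 whose interval of 0.97 to 1.26 includes 1 (edgeR adjusted p = 0.965).

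Gstm1, a mu-class transferase that conjugates glutathione to reactive compounds (gene ID 14862, chromosome 3, 108012250 to 108017973), was at 73.3, 67.1 and 65.9 CPM with rhMG53 and at 76.2, 67.7 and 59.1 CPM with BSA. BSA libraries were both the highest and the lowest, and the fold change was 1.02 with an interval of 0.89 to 1.16 (edgeR adjusted p = 0.995). Its sign turned without rhMG53 replicate 1 (log2 fold change -0.03) and without BSA replicate 3 (-0.07). Of the 50-base words of its longest coding transcript, 23.1% occur in other loci, with Gstm2-ps1 and then the paralog Gstm3 sharing the most. Gstm3 itself had at most 1 count in any library.

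Across the 10 genes, 7 had a log2 fold change above 0 and 3 below 0, in a table where 50.5% of all 13769 genes had one above 0. With scaling by library size alone 9 of the 10 were above 0. The median log2 fold change of the 10 was 0.04 and their mean 0.14, beside a median of 0.00 over all genes. In 3 genes (Gclm, Cndp2 and Gsta4) the rhMG53 libraries were all above the BSA libraries, as they were in 5.94% of all genes, and in 0 genes were they all below, as in 4.83% of all genes. None of the 10 passed an adjusted p of 0.05 in edgeR, which 0.0218% of all genes did, and 2 of the 10 (Gclm and Cndp2) had an unadjusted p under 0.05, beside 5.2% of all genes. DESeq2 and limma voom also called 0 of the 10, and they called 0.0363% and 0.0218% of all genes. At an unadjusted p under 0.05 DESeq2 had 2 of the 10 and 2.67% of all genes, and limma voom had 3 of the 10 and 5.16% of all genes. Since the 10 genes were chosen with this contrast known, nothing is read from these shares.

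**Figure D2:**
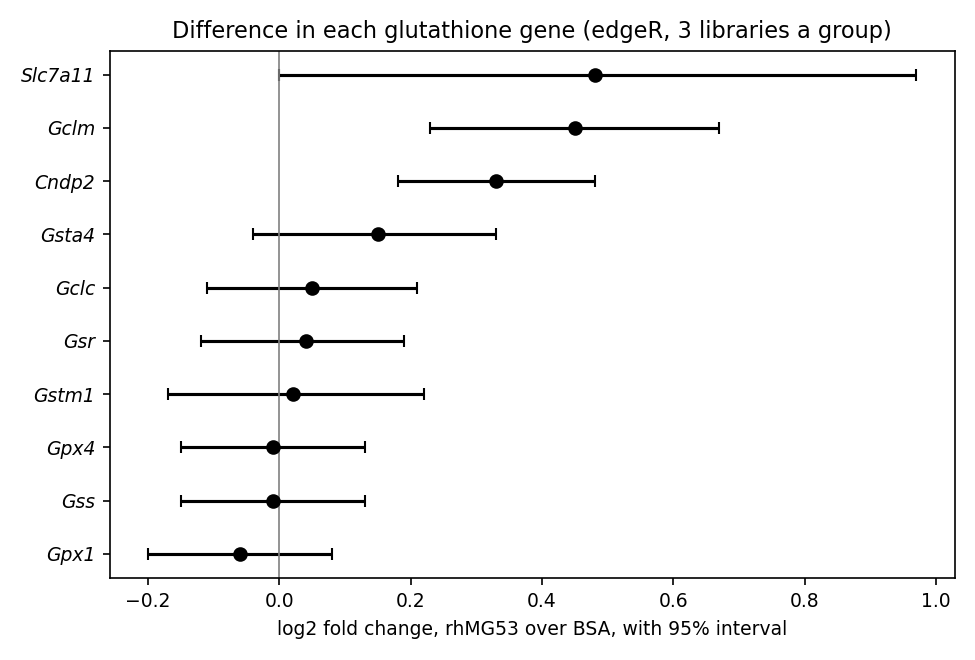
Log2 fold change of each of the 10 genes, rhMG53 over BSA, with its 95% interval from edgeR's fit (3 libraries a group). The intervals of Gclm (0.23 to 0.67) and Cndp2 (0.18 to 0.48) lie above 0, that of Slc7a11 reaches from just below 0 to 0.97, and those of the other 7 genes include 0.

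The levels of the genes were compared with each other per length, as the mean CPM per kilobase of the longest coding transcript over all 6 libraries. Gpx4 stood far above the others at 315.7 CPM per kilobase, with libraries between 300.7 and 338.3. Gstm1 (52.9, libraries 45.9 to 59.1) and Gpx1 (51.6, libraries 48.5 to 53.8) came next and did not differ beyond their spread, followed by Gss (38.2, libraries 36.1 to 39.8). Cndp2 (19.4, libraries 16.5 to 22.6) and Gsta4 (15.5, libraries 13.8 to 16.5) met at the ends of their ranges, and Gclc (11.3, libraries 10.4 to 12.1) and Gsr (8.71, libraries 8.26 to 9.03) were lower and apart from each other.

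The lowest levels per length were those of Gclm (4.0, libraries 3.03 to 4.94) and Slc7a11 (2.71, libraries 1.47 to 4.08), whose ranges overlapped. Gclm and Slc7a11 also had the highest fold changes of the 10, while Gclc, the partner of Gclm in the same enzyme, had one of 1.04. With the length of all annotated exons in place of the longest coding transcript, Gpx4 (182.2) was still the highest and Slc7a11 (1.80) the lowest, but Gss dropped to 12.7 CPM per kilobase, just above Gsta4 (12.0) and Gclc (10.2), and Cndp2 to 9.84, below both.

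**Figure D3:**
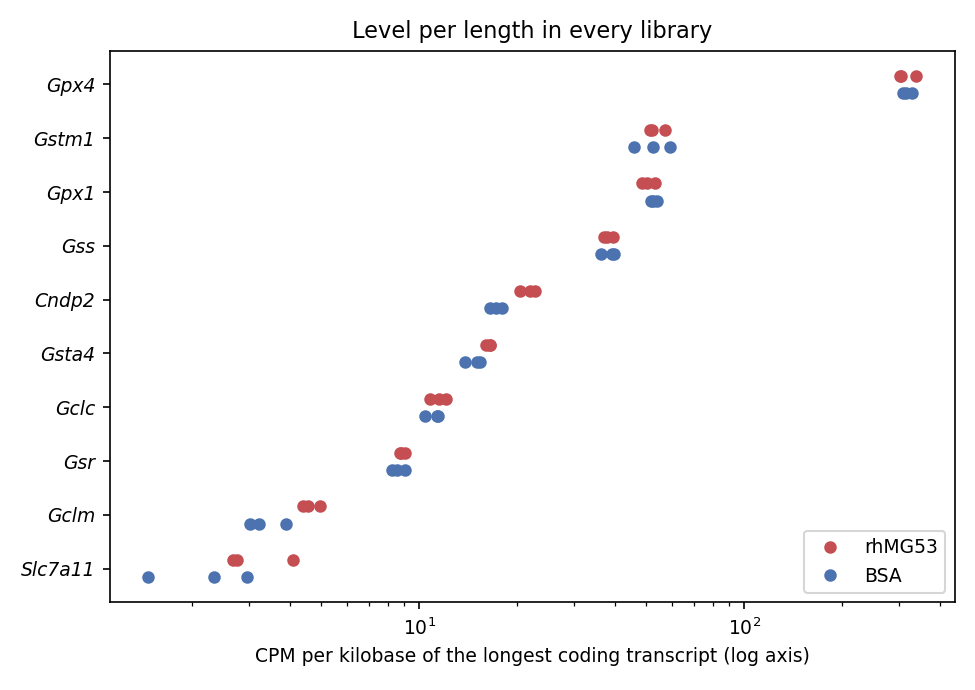
CPM per kilobase of the longest coding transcript on a log axis, in each rhMG53 and BSA library, with the genes ordered by their mean. Gpx4 lies above 300 in all libraries, and Gclm and Slc7a11 lie below 5.

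The genes also varied in how steady they were within a group, which is described here with no test. The SD of Slc7a11 was 25% of its mean in rhMG53 libraries and 33.3% in BSA libraries, larger than in 99.0% and 99.9% of the 8334 genes with a mean of 10 to 400 CPM. Gclm and Gstm1 were uneven in the BSA group, with an SD of 13.3% and 12.6% of the mean, and near the typical gene in the rhMG53 group, at 5.99% and 5.79%. The median gene in that range had an SD of 6.31% of the mean in rhMG53 libraries and 5.6% in BSA libraries. The smallest SDs, 1.61% for Gsta4 and 1.73% for Gsr in rhMG53 libraries and 1.97% for Gpx1 in BSA libraries, were below the counting error of 5.83%, 4.79% and 3.01% expected from their counts alone, so they understate the spread.

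**Figure D4:**
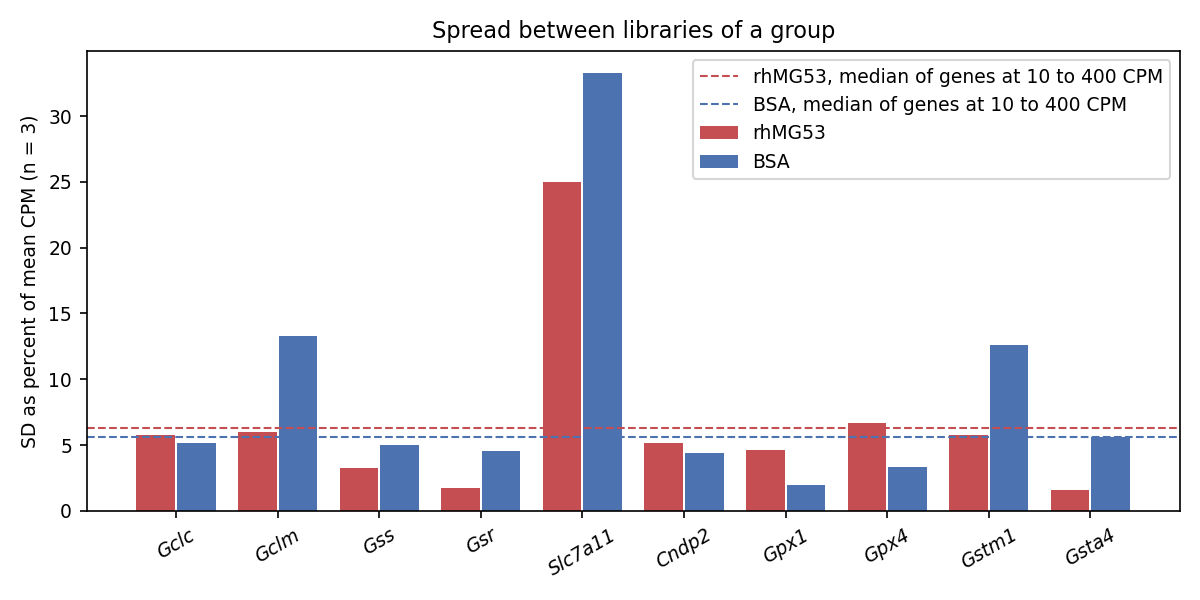
SD between the 3 libraries of a group as a percent of the mean CPM, for each gene in rhMG53 and BSA, with dashed lines at the median of all genes of 10 to 400 CPM. Slc7a11 stands out in both groups, and Gclm and Gstm1 in the BSA group.

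Likeness of pattern was described by Pearson's r of log2 CPM over the 6 libraries, which share the group difference and the scaling, with no test. Of the 45 pairs of the 10 genes 22 had an r above 0. The highest was 0.95, between Gclm and Cndp2, and it was 0.73 for deviations from the group means. For such deviations another pair was highest, Slc7a11 and Gstm1 at 0.97. The lowest r over the 6 libraries was -0.71, between Gss and Gstm1. For deviations from the group means the lowest was -0.85, between Gsta4 and Gsr. Of 10197 other genes at 5 CPM or more, those most like Cndp2 were Cxcl1 (r = 0.994), St7 (0.990) and Tmeff1 (0.985).

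The rest of the pathway was described in 10 lists of 109 genes, of which 88 passed the filter. Among these 88 genes 57 had a log2 fold change above 0 and 31 below 0, which is 64.8% above 0, beside 50.5% of all genes, and their median was 0.03. None passed in edgeR over all genes, nor in DESeq2 or limma voom. In edgeR 14 of the 88 had an unadjusted p under 0.05, which is 15.9%, beside 5.2% of all genes. The lists were also chosen with earlier results of these data known. Nothing is therefore read from these shares, or from those of single lists below. All log2 fold changes below are from the edgeR fit, with adjusted p at 0.935 to 0.997.

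Of the genes that supply the building blocks, 3 of 8 were above 0 and 5 below. Slc3a2, the heavy chain that pairs with Slc7a11, was at 111.3, 110.7 and 102.9 CPM with rhMG53 and at 94.7, 92.0 and 99.5 CPM with BSA, with all rhMG53 libraries higher (log2 fold change 0.18, SE 0.061). Per kilobase the light chain was present at 0.0821 ± 0.0186 of the heavy chain with rhMG53 and at 0.0670 ± 0.0236 with BSA. Mat2a, which makes the methyl donor S-adenosylmethionine from methionine, was lower in every rhMG53 library, at 261.6, 273.9 and 244.1 CPM with rhMG53 and at 305.6, 295.2 and 318.9 CPM with BSA (-0.24, SE 0.063). Cbs, the first enzyme of the route from homocysteine to cysteine, had 3 counts or fewer in every library.

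The NADPH supply list had the highest median of the 10 lists, 0.11, with 9 of its 10 genes above 0. Pgd, which yields NADPH in the pentose phosphate pathway, averaged 158.7 ± 4.94 CPM with rhMG53 and 143.5 ± 1.94 CPM with BSA (0.15, SE 0.055). Taldo1 and Tkt, the enzymes that return its sugars to glycolysis, averaged 120.3 ± 3.49 and 45.1 ± 3.69 CPM with rhMG53 and 108.6 ± 2.36 and 38.8 ± 2.14 CPM with BSA. In 4 of the 10 genes, these 3 among them, every rhMG53 library was above every BSA library, as in 5.94% of all genes, and the genes of the list together summed to 697.2 to 721.1 CPM with rhMG53 and 650.2 to 657.4 CPM with BSA.

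The other glutathione transferases had 14 of 17 genes above 0 and a median of 0.08. Gstp1, the pi-class enzyme with the highest level per length among them, averaged 205.0 ± 21.8 CPM with rhMG53 and 194.0 ± 13.7 CPM with BSA (0.08, SE 0.083), and Gsto1, of the omega class, 123 ± 5.62 CPM with rhMG53 and 112.1 ± 4.31 CPM with BSA (0.13, SE 0.061). Gsta3, of the same class as Gsta4, was at 3.60 ± 0.537 CPM with rhMG53 and 2.53 ± 0.118 CPM with BSA (0.51, SE 0.173). Of the other peroxidases, Gpx3 was at 326.7 ± 25.8 CPM with rhMG53 and 323.0 ± 32.3 CPM with BSA (0.02, SE 0.084, with a sign that turned without single libraries). Gpx8 and Gpx7, which lie in the endoplasmic reticulum, had log2 fold changes of 0.06 and -0.04, and Gpx2, Gpx5 and Gpx6 were at 0 counts in every library.

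Glutathione breakdown had 6 of 9 genes above 0, with the aminopeptidase Anpep at 0.48 (SE 0.193), the oxoprolinase Oplah at -0.19 (SE 0.082) and Lap3, the most abundant per length, at 0.02 (SE 0.061). In glutathione transport 6 of 8 were above 0. The mitochondrial carrier Slc25a10 was at 20.0 ± 1.97 CPM with rhMG53 and 23.6 ± 1.03 CPM with BSA (-0.24, SE 0.088), the export pump Abcc5 had a log2 fold change of -0.14 (SE 0.074) and Slc25a11 one of 0.02 (SE 0.061). The glutaredoxins and glutathione-dependent enzymes were split at 4 above and 4 below 0, with Esd and Hagh at 0.08 each.

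Of the machinery that inserts selenocysteine at the TGA codons shown above, 5 of 8 genes were above 0, among them the elongation factor Eefsec (0.31, SE 0.138), the tRNA-associated factor Trnau1ap (0.17, SE 0.092) and the selenophosphate synthetase Sephs2 (0.11, SE 0.071). In the lipid peroxide and ferroptosis list 4 of 9 were above 0. The transferrin receptor gene Tfrc averaged 482.5 ± 36.4 CPM with rhMG53 and 426.3 ± 23.5 CPM with BSA (0.18, SE 0.072), and Dhodh, a mitochondrial enzyme of pyrimidine synthesis, 11.1 ± 1.22 CPM with rhMG53 and 13.1 ± 1.35 CPM with BSA (-0.24, SE 0.115).

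The regulators of these genes were split at 4 above and 4 below 0, with a median of 0.00. Those below 0 were Keap1 (-0.03), Mafg (-0.03), Mafk (-0.05) and Atf4 (-0.02). Bach1 (0.08) was above 0, as were the regulators given next. Nfe2l2, which encodes NRF2, was at 100.2, 92.6 and 94.0 CPM with rhMG53 and at 88.8, 82.6 and 90.9 CPM with BSA, so that its groups did not overlap (0.13, SE 0.063). Nfe2l2 and Maff were named for the smallest p of the list. Maff, which encodes a small MAF protein that can pair with NRF2, averaged 18.5 ± 0.287 CPM with rhMG53 and 15.8 ± 0.220 CPM with BSA (0.23, SE 0.076). At similar levels counting error was 5.83% of the mean for Gsta4 and 4.79% for Gsr in rhMG53 libraries. The SDs of Maff are smaller than that, so they understate its spread. Nfe2l1, a relative of NRF2 and the most abundant per length of the list, averaged 836.2 ± 12.9 CPM with rhMG53 and 822.4 ± 21.8 CPM with BSA (0.02, SE 0.058).

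**Figure D5:**
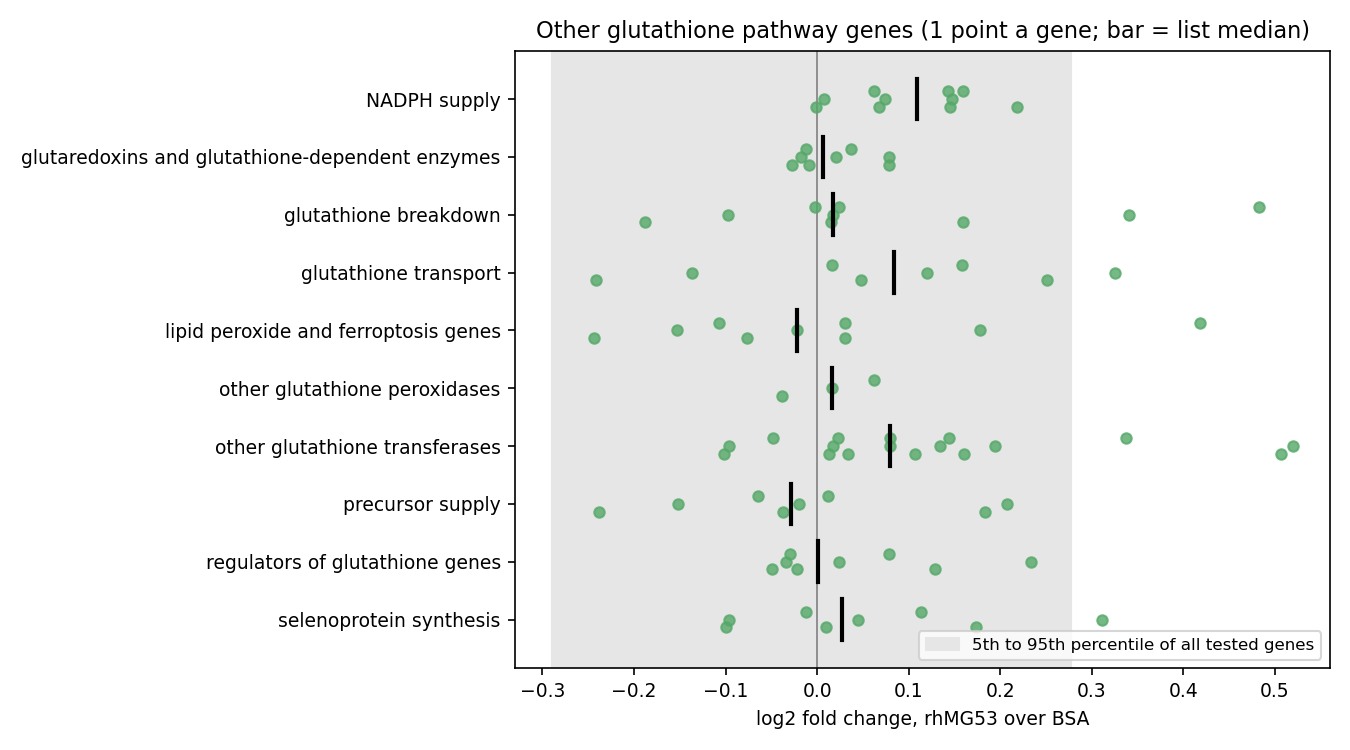
Log2 fold change, rhMG53 over BSA, of the 88 other pathway genes, with a point for each gene, a bar at each list's median and a grey band from the 5th to the 95th percentile of all genes (-0.29 to 0.28). Most points lie within the band, and the NADPH supply list has the highest median, 0.11.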

How the data were processed

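RNA was measured in 6 libraries, grouped by the treatment in their titles. The deposited table holds raw counts, 1 column per library and 1 row per NCBI gene ID, and per the submitters' processing notes the build was mm10 and the tools were STAR, featureCounts and edgeR. The sources used here name no annotation, strand setting or rule for multiply mapped reads. Total counts per library were 17374151 to 22738745. Gene IDs were matched to symbols through RefSeq's GRCm38.p6 table (25275 IDs) and GENCODE M21 (18 more), and 1886 IDs without a symbol stayed in the tests. All 109 other pathway genes and all 10 members had a row.

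Genes were kept with filterByExpr (minimum count 10, minimum total 15), scaled with TMM factors and compared by the quasi-likelihood test of edgeR 4.0.16 (R 4.3.3), 2-sided, treatment as the only term. P-values were adjusted by Benjamini-Hochberg over the 13769 genes kept, and genes under 0.05 were called. The biological coefficient of variation was 7.89%. SEs were derived from the F statistic, and intervals are 95%. CPM of single genes use TMM-scaled library sizes, and sums of marker and pathway lists plain library totals. Log2 CPM used a prior count of 2. Lengths and 50-base words come from GENCODE M21. The fit was tested on simulated counts with known changes. It called 36% of 1.25-fold changes, 76.7% of 1.5-fold, 89.3% of 2-fold and 96% of 3-fold, and 0.0491% of unchanged genes. Real changes of about 1.25-fold would thus often go uncalled. The simulation used the spread typical of each gene's level, so genes as uneven as Slc7a11 were not represented. It also planted many changed genes in each run, which loosens the adjustment over all genes. In the real fit only 3 genes passed, so the simulated rates are likely higher than those that hold for these data. The members and lists were chosen with earlier results of these data known. Lists were described by counts and medians, with no set test.

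Named genes are the 10 members, in each other list the kept genes with the smallest p (up to 2) and the most abundant per kilobase, and for likeness of pattern the highest and lowest correlated pair and the 3 genes most like the member of smallest p. Acss2, Gstm3, Cbs, Keap1, Bach1, Mafg, Mafk and Atf4, and the genes listed at 0, were named after their values were seen. Deviations of same-numbered libraries of the groups had an r of 0.190 in replicate 1, -0.127 in replicate 2 and -0.150 in replicate 3. The highest r between the groups, 0.302, was that of rhMG53 replicate 2 and BSA replicate 3, so the numbers were not taken to pair them. Replicates of a group differed by more than sampling noise, with a chi-square of 5.20 to 17.9 per degree of freedom. Alternatives were other scaling factors, other filters on low counts, DESeq2 1.42.0, limma voom (limma 3.58.1), robust moderation, a replicate block and leaving out each library.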

Additional observations from a re-analysis of the deposited data

How the results depend on the processing

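In all 15 alternatives 0 of the 10 genes passed, 7 or 9 of them were above 0, and the log2 fold changes of Gclm (0.38 to 0.57), Cndp2 (0.29 to 0.36), Slc7a11 (0.26 to 0.74), Gsta4 (0.10 to 0.18), Gclc (0.01 to 0.09), Gsr (0.01 to 0.07) and Gpx1 (-0.10 to -0.03) kept their sign. Adjusted p values came down to 0.106 for Gclm and 0.167 for Cndp2 with no filter on low counts, where both stayed above the threshold. The sign turned for Gss (0.01) and Gpx4 (0.0032) with library size alone. Over the fits that left out each library, log2 fold changes ran from -0.05 to 0.02 for Gss, -0.07 to 0.02 for Gpx4, -0.07 to 0.12 for Gstm1, -0.01 to 0.06 for Lap3, -0.10 to 0.05 for Gpx7, -0.06 to 0.07 for Gpx3 and -0.01 to 0.06 for Slc25a11. The other 30 of the 37 genes named by level or p, members included, kept their sign in every alternative in which they were tested. Of the other pathway genes 0 passed in any alternative, a count added after the data were seen.

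Of all genes 3 passed in the fit given, against 6 with no filter on low counts and 5 in DESeq2, where the number of genes tested and the test differ, and 0 with the replicate block, which leaves fewer degrees of freedom. Leaving out each library gave 0 to 4, with 0 without BSA replicate 2. The replicate block changed no call of a glutathione gene. The median log2 fold change of all genes was at most 0.016 under any scaling. Counting error alone was 1.28% to 5.97% of the mean over the 10 genes, highest for Gsta4. For Gsta4 counting error was 5.83% with rhMG53 and 5.97% with BSA, above its SDs of 1.61% and 5.58%. For Gsr it was 4.79% with rhMG53 and 4.72% with BSA, above its SDs of 1.73% and 4.55%. For Slc7a11 counting error was 4.28% with rhMG53 and 4.91% with BSA, far below its SDs of 25% and 33.3%.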
